A study of Mus musculus with 9 samples.

Results

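The Hox genes encode homeodomain transcription factors and lie in 4 clusters, Hoxa, Hoxb, Hoxc and Hoxd. They were taken here as all genes whose symbol is Hox, a cluster letter from a to d and a number. Of 39 such mouse genes, 33 were measured, among 18193 genes in all: 9 of the Hoxa, 9 of the Hoxb, 7 of the Hoxc and 8 of the Hoxd cluster. A probe set is the group of short probes that reads 1 stretch of a transcript, and each gene stands for its brightest one, by the mean of all 9 arrays. The other genes were not analysed here.

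RNA came from L8057 cells, a mouse megakaryocytic leukaemia line, on 3 arrays per group. In CBFb_KD a short hairpin RNA delivered by lentivirus targeted CBFb, the partner of the DNA-binding RUNX proteins in the core binding factor. In Ring1b_KD the hairpin targeted Ring1b, the ubiquitin ligase of Polycomb repressive complex 1 (PRC1), which is encoded by Rnf2. Control cells carried an empty vector. All 3 groups were infected, put under puromycin 48 h later together with 50 nM of the phorbol ester TPA, which drives these cells to mature, and harvested after 72 h, that is 3 days, of both agents. A single cell line, an empty vector in place of a hairpin without a target, and TPA in every group limit what the groups model. The submitters call the arrays biological triplicates, but the labels do not say whether the infections were separate, so p-values cover only the spread among the arrays at hand. The study's title concerns the recruitment of PRC1 by core binding factors, and the comparisons ask how lowering either protein's transcript altered others.

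The order of Hox genes along a cluster follows the order of their domains along the body axis of the embryo, from anterior (groups 1 to 3) through central (4 to 8) to posterior (9 to 13). Polycomb complexes are best known for keeping Hox genes silent outside their domains, and the MLL (Kmt2a) complexes and Cdx factors for keeping or turning them on. In blood, Hoxa and Hoxb genes are active in stem and progenitor cells and are generally turned down as cells mature, and Hoxa9 with its partner Meis1 is a driver of leukaemia.

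Both targeted transcripts read lower than in Control in the arrays labelled for them, but still above the median of all genes. Arrays of RNA do not measure the proteins. A gene is called here when its limma p-value, adjusted by Benjamini-Hochberg over all 18193 genes, is under 0.05. Cbfb read 9.32, 9.14 and 9.12 (normalized log2 signal) in CBFb_KD, against 12.27, 12.33 and 12.50 in Control (log2 fold change -3.17, limma adjusted p = 3.28e-10). Rnf2 read 9.08, 8.96 and 8.92 in Ring1b_KD, against 10.56, 10.68 and 10.72 in Control (log2 fold change -1.67, limma adjusted p = 3.31e-07). Neither pair of groups overlapped. Of 12 measured megakaryocyte markers, 9 read above the dim-signal mark defined below in Control, with Pf4 (platelet factor 4) at 14.4 and Itga2b (the platelet integrin alpha subunit) at 11.2, while Ppbp, Vwf and Nfe2 did not. Of these markers 7 rose in CBFb_KD and 2 fell in Ring1b_KD. Over all genes limma called 15.4% in CBFb_KD and 12.2% in Ring1b_KD against Control, and 19.4% between the knockdowns. The summed signal of the megakaryocyte markers (log2 of the sum) ran from 15.57 to 15.61 in CBFb_KD, 14.57 to 15.31 in Ring1b_KD and 14.98 to 15.23 in Control. Of markers of other cells, 4 of 7 for stem and progenitor cells, 2 of 5 erythroid, 4 of 9 granulocyte and monocyte, 3 of 6 lymphoid and 2 of 5 epithelial ones were above the mark. In CBFb_KD the erythroid Alas2 (1.62) and Epor (0.55), the granulocyte gene Prtn3 (1.42) and the progenitor marker Slamf1 (0.73) rose, and Ctsg (-0.69, granulocyte) and Kit (-0.39, progenitor) fell. In Ring1b_KD Ctsg fell (-0.80) and 1 lymphoid marker, Cd8a (0.31), rose. The summed erythroid signal ran from 12.18 to 12.43 in CBFb_KD, 11.87 to 12.20 in Ring1b_KD and 11.85 to 12.06 in Control. That of the progenitor markers ran from 12.33 to 12.52, 11.70 to 12.04 and 12.02 to 12.04 in the same groups, and that of the granulocyte and monocyte markers from 10.78 to 11.15, 10.51 to 11 and 10.97 to 11.24. The part of these marker shifts in the Hox results was not tested. For mesenchymal cells, whose Hox genes are widely active, 1 of 10 markers (Col1a2, at 11.5) read above the mark and 0 were called by limma in any comparison, with 1, 1 and 2 at an unadjusted p under 0.05 in CBFb_KD against Control, Ring1b_KD against Control and between the knockdowns. Their summed signal ran from 11.94 to 12.11 in CBFb_KD, 11.44 to 12.15 in Ring1b_KD and 11.55 to 11.83 in Control. Col1a2 carried most of that sum, and Col3a1 (4.24) and Twist1 (4.53) were dim.

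The genes that passed a test below were Hoxa5, Hoxa11 and Hoxd13. Their promoters, the 250 bases before the annotated start in RefSeq (GRCm38.p6), are shown 5′ to 3′ on the gene's strand because the targeted proteins act on chromatin and because CG-rich promoters are where Polycomb complexes are commonly found. Capitals mark CG dinucleotides. Hoxa5 lies on chr6:52204588-52204837 (minus strand), Hoxa11 on chr6:52245811-52246060 (minus strand) and Hoxd13 on chr2:74667975-74668224 (plus strand).
Hoxa5: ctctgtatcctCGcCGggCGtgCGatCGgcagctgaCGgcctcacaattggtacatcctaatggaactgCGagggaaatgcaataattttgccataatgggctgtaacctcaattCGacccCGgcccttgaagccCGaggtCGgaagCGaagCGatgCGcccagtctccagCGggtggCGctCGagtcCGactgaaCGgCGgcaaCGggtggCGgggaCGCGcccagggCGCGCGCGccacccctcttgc
Hoxa11: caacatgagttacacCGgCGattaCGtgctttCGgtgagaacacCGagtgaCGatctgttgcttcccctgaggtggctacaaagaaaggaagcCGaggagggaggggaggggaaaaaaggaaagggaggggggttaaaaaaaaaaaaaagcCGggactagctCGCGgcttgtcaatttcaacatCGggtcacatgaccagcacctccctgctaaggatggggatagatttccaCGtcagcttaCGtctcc
Hoxd13: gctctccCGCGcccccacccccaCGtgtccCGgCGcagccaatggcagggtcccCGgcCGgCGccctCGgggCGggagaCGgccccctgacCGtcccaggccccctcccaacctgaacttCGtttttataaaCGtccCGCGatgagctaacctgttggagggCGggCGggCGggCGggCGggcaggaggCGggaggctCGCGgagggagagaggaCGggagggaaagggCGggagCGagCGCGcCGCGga

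The Hoxa5 promoter held 28 CG dinucleotides and a GC content of 63.6%, Hoxa11 held 13 and 52.0%, and Hoxd13 held 31 and 74.4%. The Hoxd13 stretch was thus more CG-rich than 94.8% of the promoters in the table, Hoxa5 than 92.4% and Hoxa11 than 68.5%. The table listed 24 promoters of 22 Hox genes, 19 of them measured, with a median of 12.5 CG dinucleotides, against 6.0 over all 32851 promoters. The core RUNX motif TGTGGT, or ACCACA on the other strand, occurred in none of the 3 sequences. Among the 24 listed Hox promoters it occurred in 1 (4.2%), that of Hoxd10, against 4614 (14.0%) of all promoters of this length. The 24 came mostly from the Hoxa and Hoxd clusters. They held none of Hoxb3, Hoxc6 and Hoxc9, and do not stand for all Hox genes. A match or its lack describes these letters only.

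To place the Hox signals, 38 olfactory receptor genes, which blood cells are not known to use, served as a mark of dim signal. Their 95th percentile in Control was 7.18, and a gene under it in Control is termed dim, one above it bright. The files hold no detection calls, and a dim reading does not show that a transcript is absent: Nfe2, a megakaryocyte factor (5.37), and Hnrnpa1, which all cells use (4.44), were dim as well. Signals of different probe sets also depend on their probes, so the order of levels below is an order of signals, not of transcript amounts.

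Most Hox genes were dim in these cells. The median Hox gene read 5.86 in CBFb_KD, 5.80 in Ring1b_KD and 5.89 in Control, close to the olfactory receptor genes (5.74, 5.84 and 5.79 in the same groups) and below the median of all genes (7.42, 7.42 and 7.41). In Control 6 of 33 read above 7.18, and all 6 were also above the median gene of 7.41. They were Hoxa5, Hoxa9, Hoxa7, Hoxc9, Hoxb3 and Hoxc6. With all probe sets of a gene averaged in place of the brightest one, 2 read above the percentile. Each knockdown also had 6 Hox genes above its own olfactory percentile, 7.14 in CBFb_KD and 7.20 in Ring1b_KD.

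**Figure D1:**
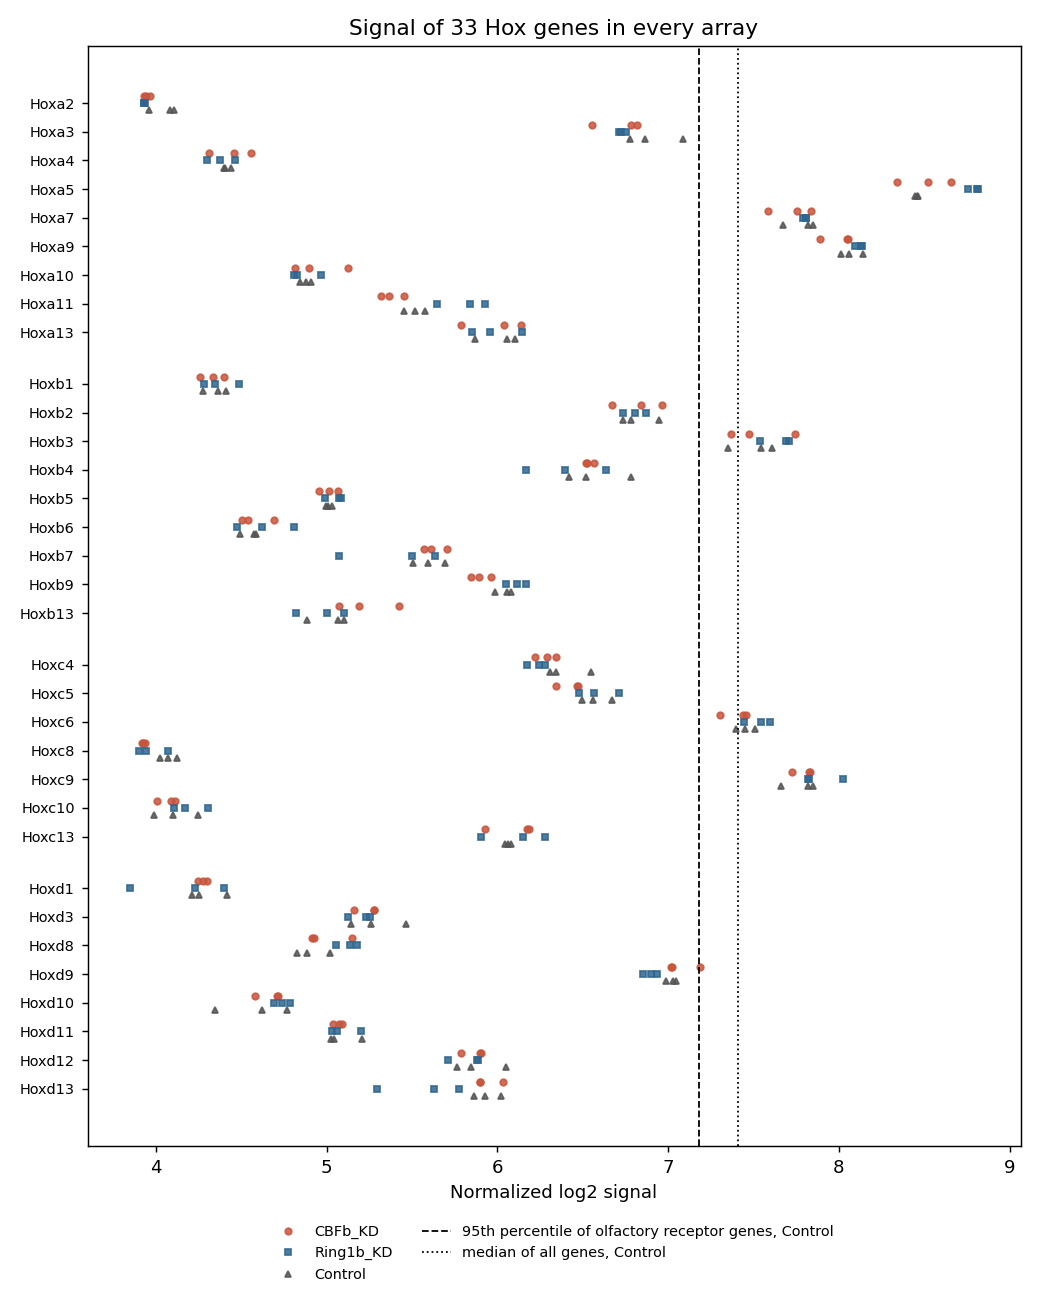
Normalized log2 signal (x axis) of the 33 measured Hox genes (rows, by cluster and number) in every array, with circles for CBFb_KD, squares for Ring1b_KD and triangles for Control. The dashed line is the 95th percentile of the olfactory receptor genes in Control (7.18) and the dotted line the median of all genes in Control (7.41). The Control means of 6 genes lie right of both lines, and the 3 groups lie close together for most genes.

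The bright genes were 3 of 9 in the Hoxa cluster, 1 of 9 in Hoxb, 2 of 7 in Hoxc and 0 of 8 in Hoxd. The cluster medians in Control were 6.01 for Hoxa, 5.60 for Hoxb, 6.40 for Hoxc and 5.19 for Hoxd. By position, 1 of 7 anterior, 3 of 12 central and 2 of 14 posterior genes were bright, with medians of 5.29, 6.0 and 5.91. The bright genes thus did not lie at one end of a cluster, and no test was run on these small counts.

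Hoxa5, a central gene that in the embryo patterns lung and the neck vertebrae, had the highest Control signal, 8.46 ± 0.01 (SD, n = 3), at percentile 62.8 of all genes. Hoxa9, the leukaemia-linked posterior gene, followed at 8.07 ± 0.07 (percentile 58.4). Hoxa7 stood at 7.78 ± 0.09, Hoxc9 at 7.78 ± 0.10, Hoxb3 at 7.50 ± 0.13 and Hoxc6 at 7.45 ± 0.06. In the order of signals Hoxa7 and Hoxc9 did not differ beyond their spread, nor did Hoxb3 and Hoxc6, while the other gaps between neighbours exceeded the SD of either gene. Thus even the brightest Hox signals lay in the middle of the range of all genes.

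Just below the mark stood Hoxd9 (7.02), Hoxa3 (6.91), Hoxb2 (6.82), Hoxc5 (6.58) and Hoxb4 (6.57), a gene that expands blood stem cells when forced on. From 6.40 to 5.89 came Hoxc4, Hoxc13, Hoxb9, Hoxa13, Hoxd13 and Hoxd12, all but Hoxc4 posterior genes, which pattern the tail end of the axis and the outer limb. Below these, Hoxb7 (5.60), Hoxa11 (5.52) and Hoxd3 (5.29) led a group down to Hoxb13 (5.02) and Hoxb5 (5.01) that also held Hoxd11 (5.09). The dimmest were Hoxd8 (4.91), Hoxa10 (4.88), Hoxd10 (4.58), Hoxb6 (4.55), Hoxa4 (4.42), Hoxb1 (4.35), Hoxd1 (4.29), Hoxc10 (4.11), Hoxc8 (4.07) and Hoxa2 (4.05). Hoxa10, a gene with a described role in megakaryocyte progenitors, was therefore among the dimmest by signal, and its other probe set read lower still, at 4.31.

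Different probe sets of one gene gave very different signals. Of the 33 genes, 22 had 1 probe set and 11 had several, 26 in all. Hoxa5 spanned 3.39 log2 units in Control, with 1 probe set at 8.46 and the other at 5.07. Hoxa9 spanned 3.29 (8.07 and 4.78), Hoxc6 2.40 (7.45, 7.40 and 5.06), Hoxa3 2.21 over 4 probe sets, Hoxc5 2.09 over 3 and Hoxb3 1.53. The rest spanned 1.07 (Hoxb4), 0.56 (Hoxa10), 0.43 (Hoxd13), 0.34 (Hoxa4) and 0.31 (Hoxd8). Hence Hoxa5, Hoxa9 and Hoxb3 were bright by 1 of their 2 probe sets and Hoxc6 by 2 of 3, while Hoxa7 and Hoxc9 had a single one. The bright Hoxa5 probe set is of the kind whose identifier ends in _x_at, which marks probes that may also match other transcripts, and the platform table gives no accession for it.

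**Figure D2:**
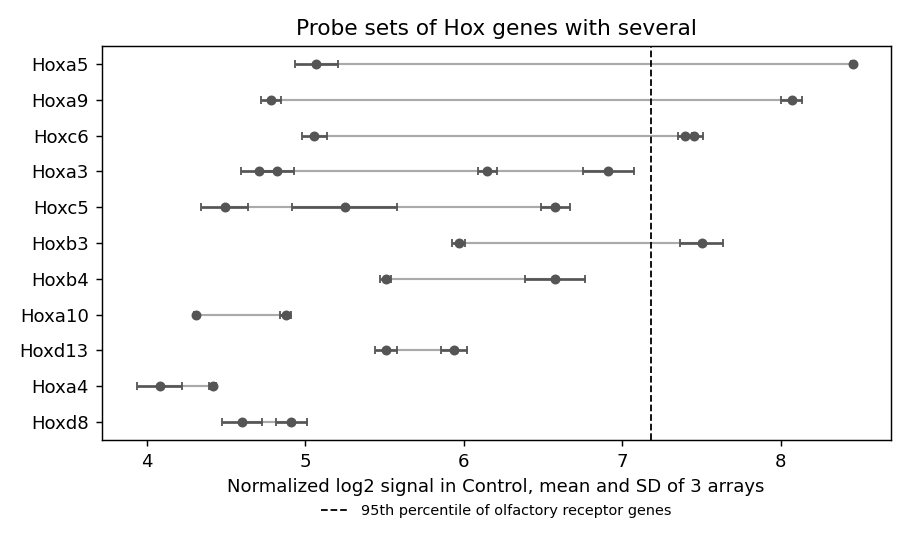
Normalized log2 signal in Control (x axis) of each probe set of the 11 Hox genes with several probe sets (rows, widest span on top), as the mean (point) and SD (bar) of 3 arrays, with a line joining the probe sets of a gene. Probe sets of Hoxa5 and Hoxa9 lie on both sides of the dashed line at 7.18, over 3 log2 units apart, and 7 of the genes have no probe set to its right.

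With CBFb targeted, no Hox gene passed the test. None of 33 was called at a limma adjusted p under 0.05, and 0 had an unadjusted p under 0.05, where 15.4% of all genes and 3.15% of the dim genes were called. The log2 fold changes ran from -0.19 (Hoxa3) to 0.21 (Hoxb13) with a median of -0.02, and 14 were positive and 19 negative. All 95% intervals of the chosen probe sets lay between -0.40 and 0.43, so larger changes of these signals lay outside every interval. Another Hoxc5 probe set had an interval from -0.46 to 0.10. These intervals concern signals, most of them dim, and not amounts of transcript. The median size of a difference was 0.05 for the Hox genes, 0.07 for dim genes and 0.10 for all genes. In bulk RNA, fewer cells with a transcript and less transcript per cell cannot be told apart.

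The 5 largest differences in CBFb_KD were all of dim genes. Hoxb13, a posterior gene of prostate and hindgut, read 5.43, 5.07 and 5.19 in CBFb_KD, against 5.10, 4.89 and 5.07 in Control (log2 fold change 0.21, limma adjusted p = 0.232). Hoxa3, which patterns the thymus and parathyroid, read 6.55, 6.78 and 6.82, against 6.78, 7.09 and 6.87 in Control (-0.19, limma adjusted p = 0.238). As groups, the arrays overlapped for both genes. Between same-numbered arrays, which deviated together in this comparison, the CBFb_KD minus Control differences were 0.32, 0.18 and 0.12 for Hoxb13 and -0.22, -0.31 and -0.05 for Hoxa3, each of 1 sign. With the replicate number as a block neither passed (limma adjusted p = 0.212 for Hoxb13 and 0.20 for Hoxa3). Hoxc5 read 6.35, 6.47 and 6.47 in CBFb_KD, against 6.49, 6.56 and 6.67 in Control (-0.15, limma adjusted p = 0.323). Hoxc8, a gene of the thoracic spinal cord, read 3.94, 3.93 and 3.92, against 4.13, 4.07 and 4.02 in Control (-0.15, limma adjusted p = 0.203). Hoxb9 read 5.85, 5.97 and 5.89, against 5.98, 6.06 and 6.08 in Control (-0.14, limma adjusted p = 0.257). For these last 3 genes every CBFb_KD array lay below every Control array. By the chosen probe sets they were the only 3 of 33 Hox genes with separated arrays, where 31.6% of all genes and 13.3% of the dim genes had them. By same-numbered pairs, 10 Hox genes had 1 sign in all 3 pairs, 2 higher and 8 lower, against 48.8% of all genes and 30.5% of the dim genes. With the block 0 of the 33 were called by limma, 0 had an unadjusted p under 0.05, and all 95% intervals lay between -0.39 and 0.43. The block was fitted to all 9 arrays. Its p-values and intervals thus also rest on the Ring1b_KD arrays, which the numbers did not pair.

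The bright genes showed the same picture in CBFb_KD. By the chosen probe sets 0 of the 6 were called, against 26.1% of bright genes. Separated arrays were found for 0 of the 6, against 47.6% of bright genes. Hoxa9 read 7.89, 8.05 and 8.05 in CBFb_KD, against 8.06, 8.01 and 8.14 in Control (log2 fold change -0.07, interval -0.25 to 0.10). Hoxa7 read 7.59, 7.76 and 7.84, against 7.67, 7.82 and 7.85 in Control (-0.05). Hoxa5 read 8.66, 8.52 and 8.34, against 8.46, 8.45 and 8.47 in Control (0.05). For each of these genes the groups overlapped, and the CBFb_KD arrays of Hoxa5 lay on both sides of the Control arrays. Hoxb3 read 7.75, 7.37 and 7.48 in CBFb_KD, against 7.61, 7.35 and 7.54 in Control (0.03). Hoxc6 read 7.44, 7.30 and 7.46, against 7.51, 7.40 and 7.45 (-0.05), and Hoxc9 read 7.73, 7.83 and 7.83, against 7.82, 7.85 and 7.66 (0.02). These 3 overlapped as well, and their signs were mixed. The equally bright second Hoxc6 probe set read 7.34, 7.23 and 7.23 in CBFb_KD, all below the 7.38, 7.45 and 7.36 in Control. It did not pass (-0.14, limma adjusted p = 0.432 over all probe sets).

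With Ring1b targeted, 2 Hox genes rose and 1 fell. These 3 are 9.09% of the Hox genes, below the 12.2% of all genes that limma called. Of the 27 dim Hox genes 2 (7.41%) were called, against 2.76% of dim genes and 5.26% (2 of 38) of the olfactory receptor genes. Of the 6 bright Hox genes 1 (16.7%) was called, against 20.5% of bright genes. The log2 fold changes of the 33 Hox genes ran from -0.37 (Hoxd13) to 0.34 (Hoxa5), 17 positive and 16 negative. Their median was 0.005, beside 0.007 for all genes. The Hox signals thus had no common direction in Ring1b_KD. The split moved with the scaling, with 22 positive and 11 negative on the deposited values and 13 positive and 20 negative after median centring. The median size was 0.08, the same as in dim genes (0.08) and under that of all genes (0.11). All 95% intervals lay between -0.60 and 0.53.

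Hoxa5 was the bright gene that rose. It read 8.81, 8.76 and 8.82 in Ring1b_KD, against 8.46, 8.45 and 8.47 in Control, so that the groups were far apart and the arrays within each close together. The difference was 1.27-fold (log2 fold change 0.34, SE 0.09, interval 0.15 to 0.53, limma adjusted p = 0.0226). When any 1 array was left out the value stayed between 0.33 and 0.36 and was called in 4 of the 9 fits, the exceptions being those without Ring1b_KD array 1 or 3 or any 1 Control array. With median centring it was 0.19 and not called (limma adjusted p = 0.164). The other Hoxa5 probe set read 5.07, 4.94 and 5.14 in Ring1b_KD, against 5.19, 4.92 and 5.10 in Control. These dim values overlapped and did not pass (-0.02, limma adjusted p = 0.929 over all probe sets), so the call rested on 1 of 2 probe sets.

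Hoxa11, a posterior gene whose human counterpart is mutated in a syndrome of missing megakaryocytes and fused forearm bones, read 5.93, 5.65 and 5.84 in Ring1b_KD, against 5.58, 5.45 and 5.52 in Control. Every Ring1b_KD array lay above every Control array, by a small margin for array 2. The difference was 1.22-fold (log2 fold change 0.29, SE 0.08, interval 0.11 to 0.47, limma adjusted p = 0.0407). When any 1 array was left out the value stayed between 0.22 and 0.37 and was called in 3 of the 9 fits. The call was lost without Ring1b_KD array 1 (0.22, limma adjusted p = 0.132) or 3 (0.27, 0.0942), without any 1 Control array (0.26 to 0.32, up to 0.142) and, narrowly, without CBFb_KD array 3 (0.29, 0.0503). With only the arrays compared it was not called either (0.29, limma adjusted p = 0.0587). Hoxa11 had 1 probe set. Hoxa11os, a transcript from the opposite strand of this gene, read 4.80, 4.67 and 4.77 in Ring1b_KD, against 4.78, 4.82 and 4.73 in Control, and did not pass (-0.03, limma adjusted p = 0.834). In CBFb_KD it read higher than in Control (0.19, limma adjusted p = 0.145) and than in Ring1b_KD (0.22, limma adjusted p = 0.0664), without a call. Its other probe set went the other way there (-0.05 and -0.11). Hoxa11os was named after its values were seen.

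Hoxd13, the last gene of the Hoxd cluster and needed for digits, read 5.29, 5.63 and 5.77 in Ring1b_KD, against 5.86, 6.02 and 5.93 in Control. All Ring1b_KD arrays were below all Control arrays, and array 1 was the lowest. The fall was 1.29-fold (log2 fold change -0.37, SE 0.11, interval -0.60 to -0.14, limma adjusted p = 0.0401). Without Ring1b_KD array 1 it was -0.24 (limma adjusted p = 0.119), and on the deposited values -0.29 (limma adjusted p = 0.101). The other Hoxd13 probe set read 5.50, 5.44 and 5.65 in Ring1b_KD, against 5.52, 5.43 and 5.57 in Control, with overlapping groups (0.02, limma adjusted p = 0.914 over all probe sets). Without Ring1b_KD array 2 Hoxd13 was not called either (-0.40, limma adjusted p = 0.0678). Without any 1 Control array or without Ring1b_KD array 1, 0 of the 33 Hox genes were called, and without Ring1b_KD array 3 or CBFb_KD array 3, 1 was.

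**Figure D3:**
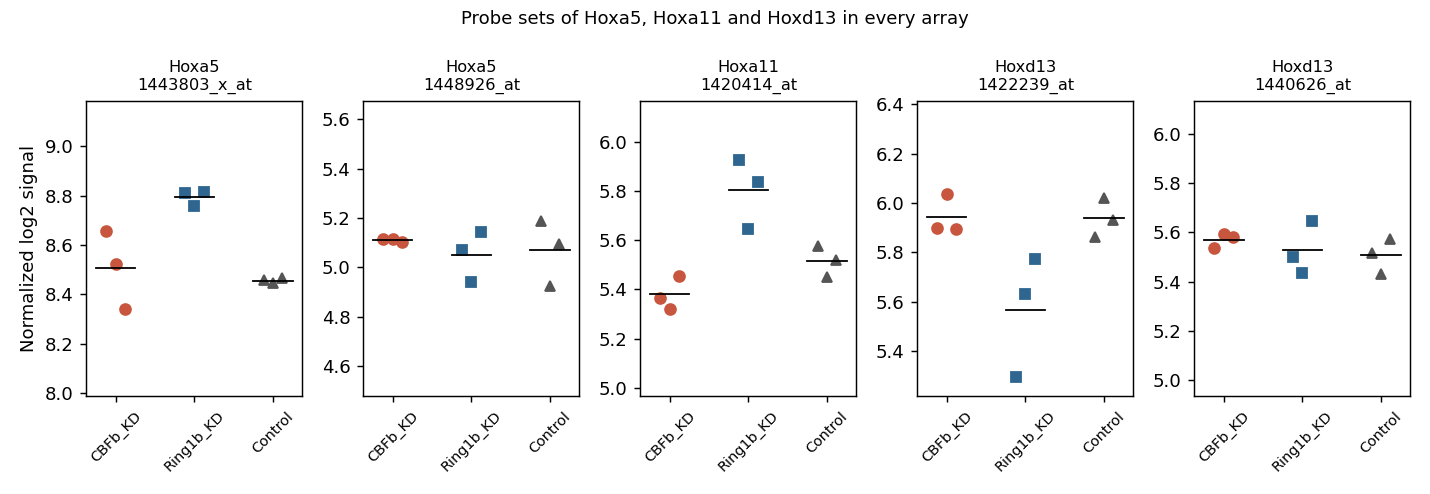
Normalized log2 signal (y axis, each panel with its own range of equal height) of the probe sets of Hoxa5, Hoxa11 and Hoxd13 in the 3 arrays of CBFb_KD, Ring1b_KD and Control, with a line at each mean. The Ring1b_KD arrays stand apart from the Control arrays for the bright Hoxa5 probe set, for Hoxa11 and for the brighter Hoxd13 probe set, and overlap with them for the other probe sets of Hoxa5 and Hoxd13.

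Among the chosen probe sets, the next in size in Ring1b_KD were those of Hoxd8 and Hoxb7. Hoxd8 read 5.18, 5.05 and 5.14 in Ring1b_KD, against 5.02, 4.89 and 4.83 in Control, with no overlap (log2 fold change 0.21, limma adjusted p = 0.122). It was the 1 further Hox gene with an unadjusted p under 0.05. Its other probe set went the other way (-0.11). Hoxb7 read 5.07, 5.50 and 5.63 in Ring1b_KD, against 5.51, 5.69 and 5.59 in Control (-0.20, limma adjusted p = 0.322). Here array 1 alone was low and the groups overlapped. A dimmer Hoxa3 probe set had a larger difference of -0.28 (interval -0.47 to -0.09), with separated arrays and without a call (limma adjusted p = 0.0723 over all probe sets). All 4 Hoxa3 probe sets had negative values in Ring1b_KD, the chosen one -0.18. In all, the chosen probe sets had separated arrays for 8 of 33 Hox genes, against 32.9% of all genes and 19.3% of the dim genes. Of these 8, 3 were higher (Hoxa5, Hoxa11, Hoxd8) and 5 lower (Hoxd13, Hoxc4, Hoxa3, Hoxa2, Hoxd9).

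The other bright genes did not pass the test in Ring1b_KD. Hoxa9 read 8.09, 8.13 and 8.13 in Ring1b_KD, against 8.06, 8.01 and 8.14 in Control (log2 fold change 0.05), and Hoxa7 read 7.81, 7.79 and 7.81, against 7.67, 7.82 and 7.85 in Control (0.02). Hoxc9 read 7.83, 8.02 and 7.82, against 7.82, 7.85 and 7.66 in Control (0.11). These groups overlapped. Hoxb3 read 7.71, 7.54 and 7.69 in Ring1b_KD, against 7.61, 7.35 and 7.54 in Control (0.15). Hoxc6 read 7.54, 7.60 and 7.45, against 7.51, 7.40 and 7.45 in Control (0.08). Its equally bright second probe set had a difference of -0.20, with every Ring1b_KD array below every Control array (limma adjusted p = 0.172 over all probe sets). All 6 bright genes had positive values in Ring1b_KD, 4 of the 6 after median centring, and only Hoxa5 passed the test.

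Probe sets of one gene often disagreed in sign, most of them on differences that did not pass. All probe sets of a gene had 1 sign in 7 of 11 genes in CBFb_KD and in 4 of 11 in Ring1b_KD. Tested over all 45037 probe sets, none of the 48 Hox probe sets was called in CBFb_KD, where 9.64% of all were. In Ring1b_KD 1 was called, the bright one of Hoxa5 (limma adjusted p = 0.036), against 8.48% of all. Between the knockdowns 2 were called, those of Hoxa11 (limma adjusted p = 0.00607) and Hoxd13 (0.0408), against 13.4% of all.

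Set directly against each other, the knockdowns differed in Hoxa11, Hoxa5 and Hoxd13, in a comparison that shares its Ring1b_KD arrays with the one above. Hoxa11 was lower in CBFb_KD, at 5.37, 5.32 and 5.46, against 5.93, 5.65 and 5.84 in Ring1b_KD. This was the largest difference among the 33 genes in the 3 comparisons, 1.34-fold, with no overlap (log2 fold change -0.42, SE 0.08, limma adjusted p = 0.00342). It kept its call in all 9 fits that left out 1 array (-0.50 to -0.36), which neither of the others did. Hoxa5 was lower in CBFb_KD as well, at 8.66, 8.52 and 8.34, against 8.81, 8.76 and 8.82 in Ring1b_KD (-0.29, limma adjusted p = 0.0329), and was not called on the deposited values (-0.21) or with median centring (-0.13). Hoxd13 was higher, at 5.90, 6.04 and 5.90 in CBFb_KD, against 5.29, 5.63 and 5.77 in Ring1b_KD (0.38, limma adjusted p = 0.0264), and was not called on the deposited values (0.30). The arrays did not overlap for either gene.

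These 3 of 33 genes (9.09%) compare with 19.4% of all genes called between the knockdowns. Of the 27 dim Hox genes 2 (7.41%) were called, against 5.61% of dim genes and 7.89% (3 of 38) of the olfactory receptor genes. Of the 6 bright Hox genes 1 (16.7%) was called, against 31.5% of bright genes. Without CBFb_KD array 2, CBFb_KD array 3 or Ring1b_KD array 1, 1 Hox gene was called, and the Hoxa5 call was also lost without Ring1b_KD array 2 (-0.31) or 3 (-0.28). Hoxb9 read 5.85, 5.97 and 5.89 in CBFb_KD, against 6.17, 6.12 and 6.05 in Ring1b_KD, and just missed the threshold (-0.21, limma adjusted p = 0.0547). On the deposited values it passed (-0.30, limma adjusted p = 0.00825), where the calls were Hoxa11 and Hoxb9, and with median centring as well (-0.22, limma adjusted p = 0.0476). Arrays were separated for 2 Hox genes higher and 5 lower in CBFb_KD than in Ring1b_KD, against 33.8% of all genes and 18.8% of the dim genes.

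**Figure D4:**
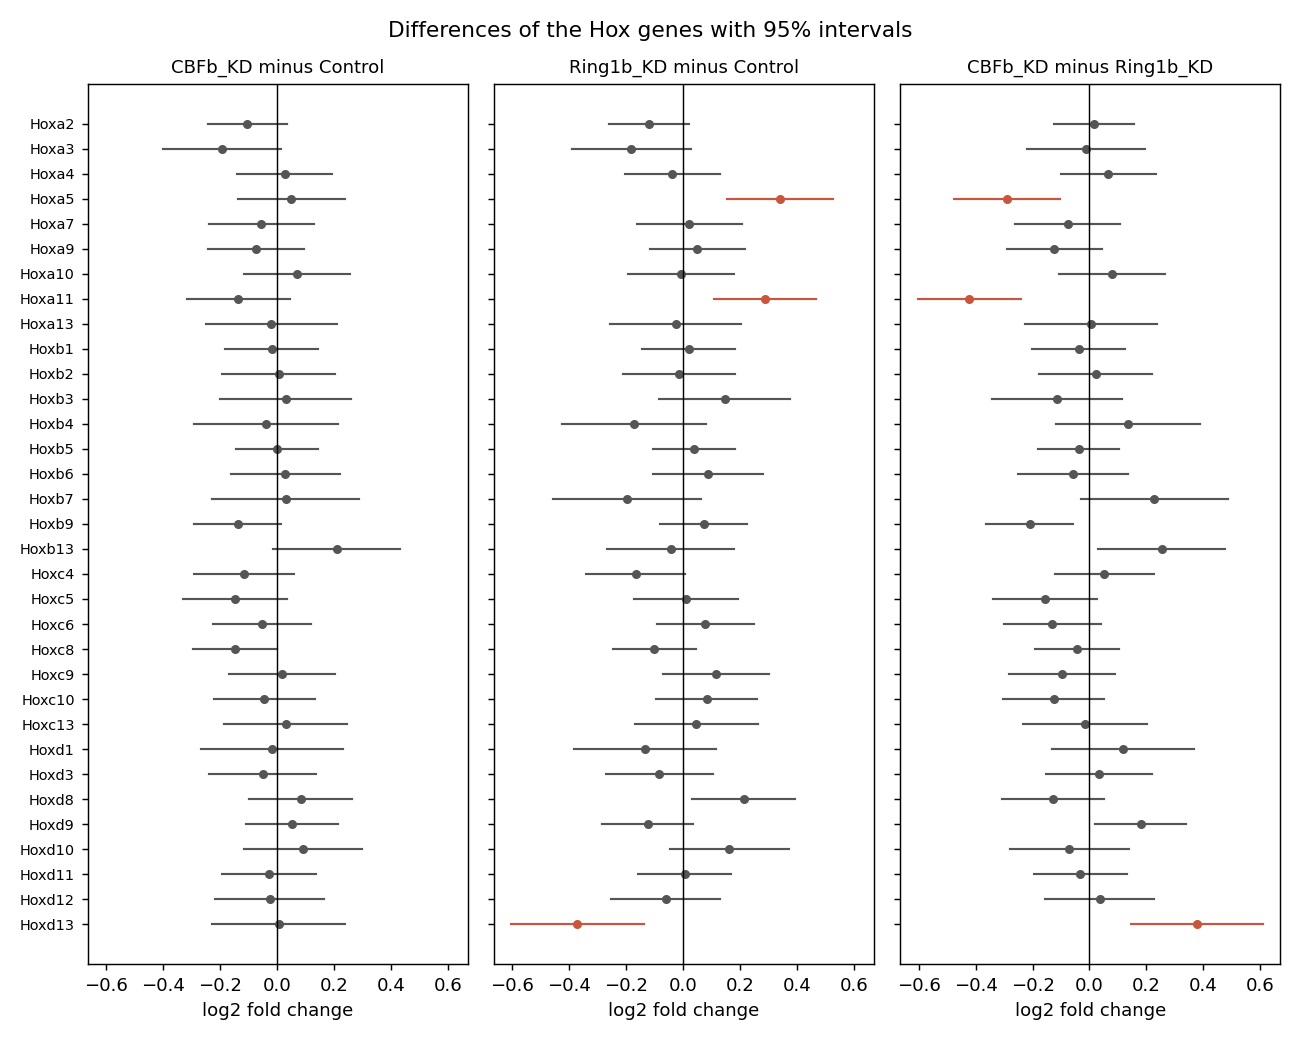
Log2 fold change (x axis) of each of the 33 Hox genes (rows) with its 95% interval, for CBFb_KD minus Control, Ring1b_KD minus Control and CBFb_KD minus Ring1b_KD. Red marks a limma adjusted p under 0.05: 0 genes in the first panel and Hoxa5, Hoxa11 and Hoxd13 in the others.

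By cluster, the calls in Ring1b_KD were 2 of 9 Hoxa genes, 0 of 9 Hoxb, 0 of 7 Hoxc and 1 of 8 Hoxd. By position they were 0 of 7 anterior, 1 of 12 central and 2 of 14 posterior. Of all genes 12.2% were called in this comparison, of dim genes 2.76% and of bright genes 20.5%. The counts are small and no test was run on them. The anterior genes had a median of -0.08 in Ring1b_KD, the central ones 0.02 and the posterior ones 0.03. In CBFb_KD these medians were -0.02, -0.02 and -0.01. In Ring1b_KD Hoxa11 stood at 0.29 (interval 0.11 to 0.47), between Hoxa10 at -0.01 (-0.19 to 0.18) and Hoxa13 at -0.03 (-0.26 to 0.20). Hoxd13 stood at -0.37 (-0.60 to -0.14) beside Hoxd12 at -0.06 (-0.25 to 0.13). Hoxa11 and Hoxd13 were picked because they were called. Their intervals overlapped those of these neighbours, and no difference between genes was tested.

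Hox proteins bind DNA together with TALE homeodomain partners of the Meis, Pbx and Pknox families. Of 8 measured partners (9 listed), Pbx3 fell in CBFb_KD and 0 were called by limma in Ring1b_KD, where 1 had an unadjusted p under 0.05 and 1 was called, lower, with probe sets averaged. The 1 call in CBFb_KD is 12.5% of the partners, near the 15.4% of all genes. In Ring1b_KD 12.2% of all genes were called. The median log2 fold change of the partners was -0.05 in CBFb_KD and -0.02 in Ring1b_KD, beside -0.01 and 0.01 for all genes. Pbx3 read 9.28, 9.43 and 9.35 in CBFb_KD, against 9.77, 9.87 and 10.02 in Control, with no overlap (log2 fold change -0.54, limma adjusted p = 0.00282). It was also lower in CBFb_KD than in Ring1b_KD, where it read 9.92, 9.92 and 9.60 (-0.47, limma adjusted p = 0.00616), although not with median centring (-0.27, limma adjusted p = 0.161). Meis2, Pbx2, Pbx3 and Pknox1 were above the dim-signal mark in Control. Meis1, the partner of Hoxa9 in leukaemia, was dim at 6.72 in CBFb_KD, 6.70 in Ring1b_KD and 6.79 in Control.

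Among 22 genes of the MLL complexes, the elongation machinery and the Cdx factors, which act on Hox genes in other settings, 2 rose and 4 fell in CBFb_KD, with a list median of -0.09. These 6 are 27.3% of the list, above the 15.4% of all genes but near the 26.1% of bright genes, and 19 of the 22 were bright. Kmt2a, the MLL methyltransferase itself, read 9.97, 10.17 and 10.15 in CBFb_KD, against 9.60, 9.46 and 9.66 in Control (log2 fold change 0.52, limma adjusted p = 0.00273). Wdr5, a core subunit of the MLL complexes, read 10.60, 10.12 and 10.32, against 10.92, 10.92 and 11.04 in Control (-0.61, limma adjusted p = 0.00148). Neither overlapped, so subunits of one complex moved in opposite directions. Kat6a, a histone acetyltransferase, also fell (-0.39, limma adjusted p = 0.0101) and Aff4, a scaffold of the super elongation complex, rose (0.42, limma adjusted p = 0.0119). Without Control array 3 the list had 2 calls, with neither Kat6a (-0.33) nor Aff4 (0.36) among them, and Aff4 (0.33) was not called without CBFb_KD array 2 either.

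In Ring1b_KD 1 gene of this list rose and 2 fell, with a median of -0.05. These 3 are 13.6% of the list, near the 12.2% of all genes and under the 20.5% of bright genes. Mllt3 (AF9), which joins the elongation machinery to chromatin and in humans maintains blood stem cells, read 8.79, 8.55 and 8.24 in Ring1b_KD, against 9.46, 9.38 and 9.53 in Control. The groups were far apart (log2 fold change -0.93, limma adjusted p = 0.000483). Brpf1, which activates Kat6a-type acetyltransferases, read 9.76, 9.79 and 9.79 in Ring1b_KD, against 9.38, 9.41 and 9.42 in Control (0.37, limma adjusted p = 0.00448), but was not called with median centring (0.18, limma adjusted p = 0.18). Kat6a fell (-0.36, limma adjusted p = 0.0204), a call lost when Ring1b_KD array 1 (-0.29) or Control array 2 (-0.38) or 3 (-0.30) was left out. This list held 1 higher and 4 lower on the deposited values and 0 higher and 5 lower with median centring.

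Between the knockdowns 3 of the 22 were higher and 6 lower in CBFb_KD than in Ring1b_KD, that is 40.9% of the list, against 19.4% of all genes and 31.5% of bright genes. The balance of directions turned with the scaling, to 6 higher and 2 lower on the deposited values and 6 higher and 1 lower with median centring. Those with the smallest p were Mllt3 (0.92, limma adjusted p = 0.000183), Brpf1 (-0.48, 0.000436), Kmt2a (0.45, 0.00587) and Rbbp5, another MLL core subunit (-0.33, 0.0103), the last not called under either other scaling (-0.21 and -0.13). Without CBFb_KD array 2, 4 of the 22 were called. The Cdx genes, homeobox activators of Hox clusters in the embryo, were dim in Control, with Cdx1 at 6.01, Cdx2 at 6.11 and Cdx4 at 4.05. All 10 measured homeobox genes of the ParaHox and extended Hox group, such as Evx1, Evx2 and Gbx2, were dim too. None was called by limma in any comparison, and 0 had an unadjusted p under 0.05. Few dim genes were called at all, 3.15% in CBFb_KD against Control, 2.76% in Ring1b_KD against Control and 5.61% between the knockdowns. The lack of a call among 10 dim genes thus says little.

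Genes flanking the clusters included bright ones that passed the test. Of the 10 annotated genes on each side of each cluster, 31 of 80 were measured, with a median log2 fold change of -0.01 in CBFb_KD and 0.02 in Ring1b_KD. In CBFb_KD 1 rose and 1 fell, 6.45% of the 31, against 15.4% of all genes. There Skap2, an adaptor of integrin signalling beside the Hoxa cluster, read 10.50, 10.78 and 10.65, against 9.96, 9.98 and 9.80 in Control (log2 fold change 0.73, limma adjusted p = 0.000541). The groups did not overlap, and the call held without any 1 array. Cbx1, a heterochromatin protein gene beside the Hoxb cluster, read 11.02, 10.95 and 11.05, against 11.46, 11.35 and 11.47 in Control (-0.42, limma adjusted p = 0.00399). By a probe set preferred for its plain _at identifier, Cbx1 was not called and had values of 0.004 in CBFb_KD against Control and 0.08 against Ring1b_KD.

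In Ring1b_KD 2 flanking genes rose and 0 fell, 6.45% of the 31, below the 12.2% of all genes. Gm11517, beside the Hoxb cluster, read 9.14, 9.20 and 9.17, against 8.69, 8.74 and 8.79 in Control (log2 fold change 0.43, limma adjusted p = 0.00239). Smug1, a DNA repair glycosylase gene beside the Hoxc cluster, read 8.43, 8.45 and 8.18, against 8.02, 7.99 and 7.95 in Control (0.37, limma adjusted p = 0.0166). No arrays overlapped for either. With median centring neither was called (0.26 each) and the flanking genes held 0 higher and 4 lower, so the direction turned with the scaling. Smug1 also lost its call in the fits that left out Ring1b_KD array 1 (0.33) or 2 (0.32), or Control array 2 (0.37) or 3 (0.35).

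Between the knockdowns, 2 flanking genes were higher in CBFb_KD than in Ring1b_KD, Skap2 (0.64, limma adjusted p = 0.00108) and Calcoco1 (0.48, limma adjusted p = 0.041). Another 4 were lower, Cbx1 (-0.55), Smug1 (-0.48), Tax1bp1 (-0.40) and Gm11517 (-0.30). These 6 are 19.4% of the flanking genes, the same share as of all genes (19.4%). Under both other scalings 4 were higher and 2 lower, so here too the balance of directions turned. The call of Calcoco1 was lost without any 1 of CBFb_KD arrays 2 and 3, Ring1b_KD arrays 1 and 3, and Control arrays 1 and 3 (0.35 to 0.48). Tax1bp1 and Gm11517 were not called under either other scaling, and Tax1bp1 (-0.33) also not without Ring1b_KD array 2. Of all genes 15.4%, 12.2% and 19.4% were called in CBFb_KD against Control, Ring1b_KD against Control and between the knockdowns. Of 5 measured genes inside the clusters that are not Hox genes, 0 were called by limma in any comparison. An unadjusted p under 0.05 was held by 1, 0 and 1 of these 5 genes in the same order. Among them Hoxb5os, from the strand opposite Hoxb5, was bright, at 7.65 in CBFb_KD, 7.83 in Ring1b_KD and 7.60 in Control, while Hoxb5 itself was dim (5.01, 5.05 and 5.01).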

How the data were processed

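The authors deposited log2 values, as judged from their range (3.23 to 15.4 over 45101 probe sets). Labelling started from the poly(A) tail and gave biotinylated RNA, 1 sample per array, per the labels' protocols. How the log2 values were computed (software, background correction, probe summary) is not given in the sources used here. Its effect on the differences of dim genes was not tested. Array medians spanned 0.1375, above the limit of 0.1 set for leaving values as they are, so arrays were quantile normalized and 64 control probe sets dropped. Of the rest, 34945 probe sets had 1 gene symbol in the platform table, 932 several and 9160 were not listed. The probe set with the highest mean stood for each of 18193 genes. The number of arrays limits the precision, and arrays of one group correlated at 0.995 to 0.997.

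Group means were fitted to all 9 arrays with limma 3.58.1 (R 4.3.3, trended variance, prior of 6.805 degrees of freedom), two-tailed, Benjamini-Hochberg over all genes, called at an adjusted p under 0.05. The fit was tested on simulated data. The members and gene lists were chosen with earlier results of these data known. Values in every array are given for Hox genes called in any comparison, for those above the olfactory receptor percentile in Control and for the 5 largest differences in each knockdown. Of the other lists, up to 4 called genes per comparison, and all called flanking genes, are named. Gene order came from RefSeq (GRCm38.p6) and served only to find neighbours. Other probe-set choices, scalings, filters, variance settings, left-out arrays and a replicate block were tried. Replicate numbers are shared by the labels without a stated reason. Deviations of same-numbered CBFb_KD and Control arrays correlated at 0.203, 0.377 and 0.200, and those of differently numbered ones at -0.346 to 0.147. For that comparison the numbers were therefore taken to pair the arrays, a choice drawn from these same data. The main p-values and intervals come from the fit without the block.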

Additional observations from a re-analysis of the deposited data

How the results depend on the processing

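The absence of Hox calls in CBFb_KD against Control held under all 10 other processings and in all 9 fits without 1 array. In Ring1b_KD against Control 1 Hox gene was called, in place of 3, with all probe sets of a gene averaged, among genes above the olfactory receptor percentile or at or above the median gene (where 6 Hox genes could be tested), and with only the arrays compared. Between the knockdowns it was 1 under the last 3 of these. Leaving out 1 array gave 0 to 0 in CBFb_KD, 0 to 3 in Ring1b_KD and 1 to 3 between them, and over all genes 1751 to 2995, 1139 to 2365 and 2377 to 3564 calls, against 2798, 2225 and 3536. The counts of 1751 and 1139 came without Control array 3. Without CBFb_KD array 2 CBFb_KD had 1849 calls, and without Control array 2 Ring1b_KD had 1225. With probe sets averaged 2 Hox genes, in place of 6, read above the olfactory receptor percentile. Preferring plain _at probe sets turned Hoxa5 to -0.0185 in Ring1b_KD against Control and 0.0579 between the knockdowns, and Cbx1 to 0.00422 in CBFb_KD against Control and 0.0758 between the knockdowns, because another probe set is read. Over all genes 1029 were higher and 1196 lower in Ring1b_KD than in Control, against 882 and 1709 on the deposited values and 352 and 2543 with median centring. Between the knockdowns 1843 were higher and 1693 lower, against 2118 and 1284, and 2725 and 512. The cause was not tested. With the replicate number as a block, the Hox counts were 0, 3 and 3, and those over all genes 3142, 2611 and 3938. The numbers did not pair the arrays of Ring1b_KD and Control (correlations -0.0677, 0.0436 and 0.153) or of the knockdowns (0.0454, 0.104 and -0.0377). Of the Hox fold changes under alternatives, 1579 kept direction and side of the threshold, 38 lost a call, 3 gained one, 2 reversed and 97 uncalled ones changed sign.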
